A study of Mus musculus with 8 samples.

Results

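The core clock loop was followed in whole hearts of 9-week-old male C57BL/6J mice, an inbred laboratory strain, kept on a standard pellet diet. Hearts came from 4 satiated mice without treatment and from 4 mice that had gone without food, but with water, for 2 days. The loop was taken as 10 genes fixed by name: the activators Arntl (also called Bmal1), Clock and Npas2, the repressors Per1, Per2, Per3, Cry1 and Cry2, and the nuclear receptors Nr1d1 and Nr1d2. Non-control probes were matched to these genes through their RefSeq accessions, which gave 17 of the 41174 probes on the array and at least 1 probe for each of the 10 genes. In the comparison across all genes the 10 stood among 20203 genes and unnamed probes tested.

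In the mammalian clock, ARNTL pairs with CLOCK or NPAS2, and the pair switches on the Per and Cry genes through E-box elements. PER and CRY proteins accumulate, enter the nucleus and repress the pair, and their decay lets the cycle start again. In a second loop the same pair drives Nr1d1 and Nr1d2, whose products REV-ERB alpha and beta repress Arntl and Npas2 through ROR elements that the ROR receptors activate. The heart holds such a clock in its own cells, and feeding time, glucocorticoids and temperature can set its phase. The labels do not state at what time of day these hearts were taken, so a level below is that of 1 unstated time point per heart, and a shift in phase and a change in mean level cannot be told apart.

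Each heart was hybridised to 1 array in 1 colour, and the arrays lay on 2 slides that were scanned separately, with replicates 1 and 2 of both groups on slide 1 and replicates 3 and 4 on slide 2. Between 54.4% and 68.9% of the probes were well above background, with slide 2 giving the lower shares. Signals are given below as a percentage of the 75th percentile of the same array. The lowest signal well above background was 1.62% to 1.99% on slide 1 and 4.50% to 5.37% on slide 2, so dim probes were better measured on slide 1. Precision is limited by having 4 arrays in each group. Nothing in the labels says more than that the samples are separate, so a p-value here reflects the scatter among the 8 samples, which may be partly technical. In whole tissue, fewer cells of a type and less RNA per cell cannot be told apart.

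Some satiated hearts stood apart on markers of other tissues. In satiated replicate 1 the fast skeletal muscle genes Actn3, Mylpf and Pvalb read 1197%, 995% and 313%, against 4.90% to 10.3%, 19.7% to 25.0% and 3.06% to 4.64% in the other 7 hearts, while Myh4, the fourth such marker tested, read 15092% to 23629% over all 8. Satiated replicates 3 and 4 were high for the adipocyte genes Plin1 (340.4% and 499%, against 53.1% to 133% in the others) and Retn (81.7% and 132%, against 7.44% to 23.7%). Adipoq and Cfd, the other adipocyte markers tested, were highest in satiated replicate 4 (1143% and 6835%). In satiated replicate 3 they read 699% and 3646%, below fasted replicate 1 (715% and 5478%). Without satiated replicate 1 the log2 differences of Arntl, Per3 and Nr1d2 were 1.97, -1.44 and -0.68 (adjusted p = 0.0828, 0.0778 and 0.0626 in limma). The part of these other tissues in the results was not tested.

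In the fasted hearts Arntl was higher, by 5.07-fold, Per3 was lower, by 3.08-fold as measured, and Nr1d2 was lower, by 1.71-fold. The Per3 value includes 2 fasted hearts in which its probe was not well above background, and its log2 difference was -0.45 and not called with normexp background correction. The other 7 genes, Clock, Npas2, Per1, Per2, Cry1, Cry2 and Nr1d1, did not pass the test. Thus 1 of 10 rose and 2 of 10 fell in limma (threshold 0.05 on p adjusted by the Benjamini-Hochberg method), whereas over all 20203 genes and probes 20.2% were called, 9.82% higher and 10.3% lower. At 3 of 10 the loop's share is near that background. The median absolute log2 difference was 0.62 for the 10 genes and 0.32 over all tested. The fasted and the satiated values of 2 of the 10 genes, Per3 and Nr1d2, did not overlap, against 27.6% of all tested. These 3 calls rest on few hearts: 0 of the 10 genes passed in limma without satiated replicate 1, satiated replicate 3, fasted replicate 1 or fasted replicate 4, with 3 or 4 of the 10 at an unadjusted p under 0.05 each time.

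**Figure D1:**
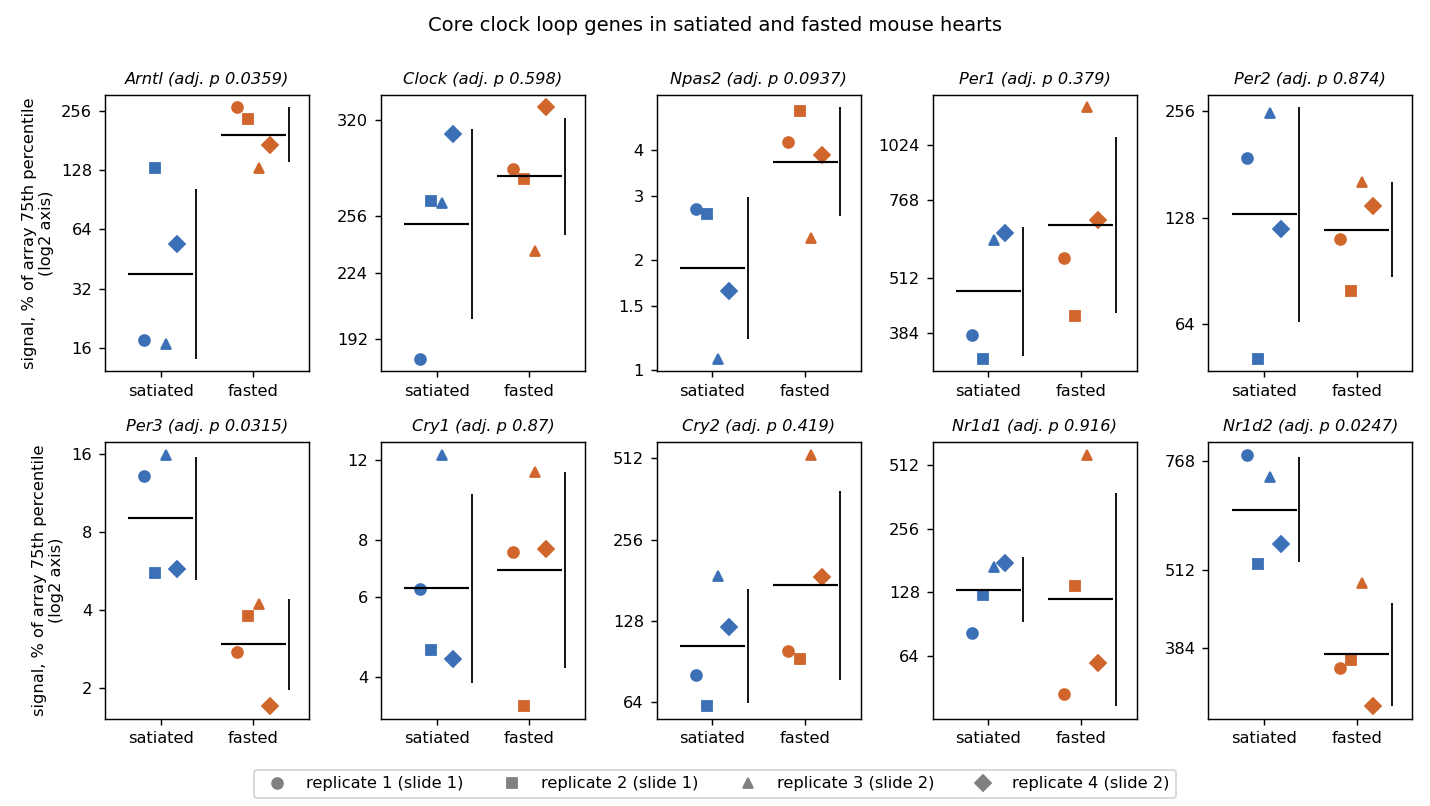
Signal of the 10 core clock loop genes in each heart, as a percentage of the array's 75th percentile on a log2 axis (the axes do not start at 0 and differ between panels); points are hearts, with shapes for replicate numbers, horizontal bars are group means of log2 values and vertical bars are ± SD (n = 4 per group). Arntl spans 16.7% to 132% in the satiated hearts and 130.4% to 267% in the fasted hearts, while the groups of Per3 and Nr1d2 do not overlap.

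Arntl encodes the partner that every activating pair of the loop needs. Its signal was 17.6%, 132%, 16.7% and 53.9% in satiated replicates 1 to 4 and 267%, 233%, 130.4% and 171% in fasted replicates 1 to 4. All fasted hearts lay above 3 of the satiated hearts, and satiated replicate 2 reached the level of the lowest fasted heart. The log2 difference was 2.34 ± 0.64 (SE, n = 4 and 4; adjusted p = 0.0359 in limma), with a 95% interval of 0.87 to 3.82. It was nearly the same on both slides, 2.37 on slide 1 and 2.31 on slide 2. Of the 8 leave-one-out comparisons 1 called it, that without satiated replicate 2 (2.94, adjusted p = 0.0102), and the adjusted p reached 0.0863 without fasted replicate 1. The difference stayed between 1.95 and 2.94 when any 1 heart was left out.

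Clock encodes the usual partner of ARNTL. It was read by 3 probes that disagreed. On the brightest, A_52_P334670, the satiated hearts gave 183%, 265%, 264% and 310% and the fasted hearts 285%, 279%, 236% and 330%. The groups overlapped, and the log2 difference was 0.16 ± 0.19 (adjusted p = 0.598, 95% interval -0.26 to 0.59). A_52_P334677 gave a like difference, 0.10 ± 0.24. On the dimmest, A_52_P161365, the satiated hearts gave 2.34%, 2.27%, 3.14% and 3.22% and the fasted hearts 5.70%, 7.37%, 21.0% and 5.63%. The groups did not overlap there, and that probe was called when every kept probe was tested on its own (1.63 ± 0.41, adjusted p = 0.0248 in limma), as were 4 of the 17 loop probes against 21.1% of all kept probes. It was not well above background in any satiated heart of slide 2, and was so in 1 of the fasted hearts there. As the mean of its 3 probes Clock was called (0.63, adjusted p = 0.0173), while its brightest probe was not.

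Npas2, which can stand in for Clock, had 1 dim probe. It read 2.75%, 2.68%, 1.08% and 1.64% in the satiated hearts and 4.21%, 5.12%, 2.30% and 3.87% in the fasted hearts. On each slide both fasted hearts were above both satiated hearts, and on slide 2 none of the 4 was well above background. The difference was 0.97 ± 0.36 (adjusted p = 0.0937 in limma, 95% interval 0.15 to 1.79), 0.77 on slide 1 and 1.17 on slide 2. It passed once slide was a term of the fit (adjusted p = 0.0128) and once replicate number was the block (adjusted p = 0.00831), while normexp background correction cut the difference to 0.29 (adjusted p = 0.246). With slide as a term 35.5% of all tested were called and 4 of the 10 loop genes, namely Arntl and Npas2 upward and Per3 and Nr1d2 downward.

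**Figure D2:**
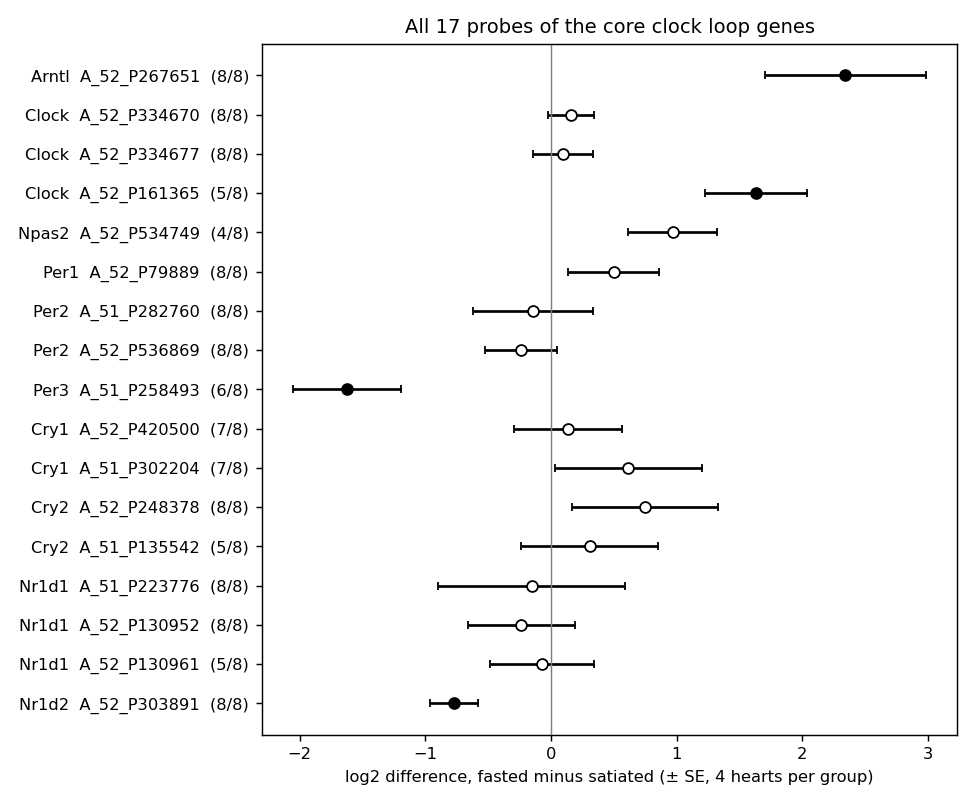
Log2 difference between fasted and satiated hearts (horizontal axis, ± SE, 4 hearts per group) for all 17 probes of the 10 genes, with the number of arrays well above background out of 8 in brackets; filled points passed at an adjusted p under 0.05 when every kept probe was tested. The filled points are the probes of Arntl, Per3 and Nr1d2 and the dimmest of 3 Clock probes.

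Per1, the period gene that answers fastest to hormones and cyclic AMP, read 380.0%, 335%, 624% and 647% in the satiated hearts and 566%, 419.6%, 1248% and 692% in the fasted hearts. Fasted replicate 3 stood highest, and both groups were higher on slide 2, by 0.83 and 0.93 on the log2 scale. The difference between the groups was 0.50 ± 0.36 (adjusted p = 0.379, 95% interval -0.33 to 1.33).

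Per2, a period gene with a large daily swing in many tissues, read 189%, 51.1%, 254% and 119% in the satiated hearts on its brighter probe, A_51_P282760. The fasted hearts gave 111%, 79.2%, 162% and 138% and lay inside the satiated range. The difference was -0.14 ± 0.48 (adjusted p = 0.874, 95% interval -1.24 to 0.95). The second probe, A_52_P536869, gave -0.23 ± 0.29. On the brighter probe the spread was in the satiated group, whose highest heart held 4.97 times the signal of its lowest. On A_52_P536869 the 2 groups spread alike, with an SD of log2 signal of 0.49 in the satiated and 0.42 in the fasted hearts.

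Per3, a period gene that adds little to the repression itself, read 13.2%, 5.58%, 16.0% and 5.75% in the satiated hearts and 2.76%, 3.80%, 4.21% and 1.70% in the fasted hearts. Every fasted heart was below every satiated heart. The log2 difference was -1.62 ± 0.43 (adjusted p = 0.0315 in limma, 95% interval -2.61 to -0.64), -1.40 on slide 1 and -1.84 on slide 2. The probe was not well above background in either fasted heart of slide 2, so its level there is a bound. With normexp background correction the difference was -0.45 (adjusted p = 0.173). Leaving out satiated replicate 1 or 3 or fasted replicate 1 or 4 ended the call (adjusted p = 0.0670 to 0.0778).

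The promoter of Per3 is shown because it held the rarest of 3 motifs searched on both strands in RefSeq promoter windows, which run from 250 bases before to 50 bases after the start. The motifs were the E-box CACGTG, the core AGGTCA of the ROR element and the D-box TTATGTAA, the element of DBP, TEF, HLF and NFIL3. A D-box was found in 0.938% of all 32851 windows, an E-box in 7.15% and a ROR core in 16.3%. Of the 10 genes 9 matched a window, Per2 being the exception. The 250 bases before the Per3 start on the minus strand, chr4:151044666-151044915 in GRCm38.p6 (RefSeq), held the D-box at 2 places, in capitals.
Per3 upstream: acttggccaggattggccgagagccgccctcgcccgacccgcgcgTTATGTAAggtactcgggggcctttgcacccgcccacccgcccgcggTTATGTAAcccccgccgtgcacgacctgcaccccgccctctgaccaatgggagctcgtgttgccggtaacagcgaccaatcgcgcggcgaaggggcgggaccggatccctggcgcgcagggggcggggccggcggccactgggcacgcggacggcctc
A match is a run of letters and not a measured binding site.

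Cry1, the stronger cryptochrome repressor, was dim. Its brighter probe over all hearts, A_52_P420500, read 6.25%, 4.58%, 12.3% and 4.38% in the satiated hearts and 7.52%, 3.46%, 11.3% and 7.64% in the fasted hearts. The groups overlapped throughout, with a difference of 0.13 ± 0.43 (adjusted p = 0.870). The other probe, A_51_P302204, gave 0.62 ± 0.59. Cry2 read 80.2%, 61.7%, 187% and 121% in the satiated hearts and 99.0%, 92.2%, 529% and 186% in the fasted hearts on A_52_P248378. Slide 2 was higher in both groups, by 1.71 on the log2 scale in the fasted hearts, and fasted replicate 3 was the highest heart. The difference was 0.75 ± 0.58 (adjusted p = 0.419), and the dimmer probe A_51_P135542 gave 0.31 ± 0.54.

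An exact E-box lay in the windows of Per1 and Cry1 and in none of the other matched windows of the loop. Only exact matches inside these windows were searched for each motif, so an element spelled otherwise or lying elsewhere would be missed. The Per1 and Cry1 sites are shown, in the direction of each gene, because the activator pair acts through this element. The Per1 site is chr11:69098773-69098798 on the plus strand and the Cry1 site chr10:85185099-85185124 on the minus strand, both in GRCm38.p6 (RefSeq), with the E-box in capitals.
Per1 site: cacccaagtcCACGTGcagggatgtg
Cry1 site: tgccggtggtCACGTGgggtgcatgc

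Nr1d1 encodes REV-ERB alpha, the main repressor of Arntl. It read 81.6%, 124%, 169% and 176% in the satiated hearts and 42.3%, 136%, 574% and 59.2% in the fasted hearts on its brightest probe, A_51_P223776. Fasted replicate 3 was above every satiated heart and fasted replicates 1 and 4 were below them all, a 13.6-fold range within the group. The difference between the groups was -0.15 ± 0.75 (adjusted p = 0.916), and its 95% interval of -1.87 to 1.56 covers a large change in either direction. Without fasted replicate 3 the value was -0.91 ± 0.44 (adjusted p = 0.208), and without fasted replicate 1 it was 0.34. The other probes, A_52_P130952 and A_52_P130961, gave -0.23 ± 0.42 and -0.07 ± 0.41. On A_52_P130952 the satiated hearts lay within 14.4% to 14.9%, a narrow range beside that of the brightest probe.

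Nr1d2 encodes REV-ERB beta, which shares the work of REV-ERB alpha. Its probe read 787%, 525%, 725% and 564% in the satiated hearts and 356%, 367%, 488% and 309% in the fasted hearts. Every fasted heart was below every satiated heart. The difference was -0.77 ± 0.19 (adjusted p = 0.0247 in limma, 95% interval -1.21 to -0.34), -0.83 on slide 1 and -0.72 on slide 2. Of the 8 leave-one-out comparisons 3 called it, those without satiated replicate 2 or 4 or fasted replicate 3. In the others the adjusted p reached 0.0659, without satiated replicate 3.

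A ROR core lay in 4 of the 13 windows of the 9 matched genes, against 16.3% of all windows. These 4 windows belong to Per1, Arntl, Clock and Nr1d2. The sites of Arntl and Nr1d2 are shown because both genes passed the test and REV-ERB and ROR proteins compete for this element. The Arntl site, chr7:113207532-113207557 on the plus strand, lies after the start of its second window, at bases 32 to 37, and the Nr1d2 site, chr14:18239168-18239193 on the minus strand, lies 77 to 72 bases before the start (GRCm38.p6, RefSeq; AGGTCA in capitals).
Arntl site: ggcagaaagtAGGTCAgggacggagg
Nr1d2 site: ttggaagaagAGGTCAggaccgctcg
The windows of Npas2, Nr1d1 and Cry2, 1 each, held none of the 3 motifs.

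Hearts of the same group differed widely in the loop. Over the 10 genes the median SD of log2 signal was 0.67 in the satiated hearts and 0.54 in the fasted hearts, against 0.24 and 0.30 over all tested. Among satiated hearts Arntl had an SD of 1.43, above that of 99.3% of all tested, and Per2 one of 1.01, above 97.1%. Among fasted hearts Nr1d1 had an SD of 1.68, above 99.5%, and Cry2 one of 1.17, above 97.9%. Clock (0.32 and 0.20) and Nr1d2 (0.28 and 0.28) varied least. These SDs are of the brightest probe of each gene. The shares were not matched for signal, and dim probes vary more. An SD here also holds any gap between the slides, which was 1.71 for Cry2 in the fasted hearts. On other probes the fasted SD was 0.98 and 0.66 for Nr1d1, 1.05 for Cry2 and 0.90 for the dimmest Clock probe. The second Per2 probe had a satiated SD of 0.49.

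On the brightest probe of each gene, fasted replicate 3 read highest of its group for Per1, Per2, Per3, Cry1, Cry2, Nr1d1 and Nr1d2 and lowest for the activators Arntl, Clock and Npas2. The same heart was extreme for 63.1% of all tested, the highest share of any heart. Fasted replicate 4, on the same slide, came next in order for Per1, Per2, Cry1, Cry2, Arntl and Npas2. It did not for Per3, Clock, Nr1d1 and Nr1d2. The part of the slide in this order was not tested. The Per3 and Npas2 signals of fasted replicate 3 were not well above background, so their place in the order is not secure. Other probes of a gene did not all keep this order. On the second Per2 probe fasted replicate 3 was the third of 4 (15.7%, 13.1%, 10.6% and 8.03% in fasted replicates 1 to 4). On the Nr1d1 probe A_52_P130961 it was also the third of 4, at 6.97%. On the dimmest Clock probe, A_52_P161365, it was the highest, at 21.0% against 5.63% to 7.37%. It kept its place on A_52_P334677 of Clock, A_52_P130952 of Nr1d1 and the second probes of Cry1 and Cry2. The other fasted hearts were extreme for 20%, 50% and 30% of the loop genes (replicates 1, 2 and 4), against 37.9%, 50.8% and 48.2% of all tested. Satiated replicate 2 was the highest heart of its group for Arntl and the lowest for 5 genes, Per1, Per2, Per3, Cry2 and Nr1d2, and was extreme for 47.8% of all tested. Satiated replicates 1, 3 and 4 were extreme for 40%, 60% and 40% of the loop genes, against 51.8%, 55.1% and 45.3% of all tested. These orders were not tested. Satiated replicates 1 and 3, on different slides, had the lowest Arntl, 17.6% and 16.7%, and the highest Per2, Per3, Cry1 and Nr1d2 of their group on the brightest probes. Other repressors differed: satiated replicate 1 was the lowest heart for Nr1d1 (81.6%) and the second lowest for Per1 (380.0%) and Cry2 (80.2%). On the second Per2 probe, with 21.2%, 14.4%, 11.1% and 9.87% in satiated replicates 1 to 4, replicate 3 was the third. Dbp, a direct target of the activator pair, read 7724%, 4054%, 6377% and 5250% in satiated replicates 1 to 4, so replicates 1 and 3 were again the highest. Ciart, a repressor of the pair, read 137%, 34.4%, 87.8% and 57.9%, in that same order of hearts. Of the other accessory factors tested, which are described below, Tef, Hlf and Rora also had replicates 1 and 3 highest. Nfil3, Bhlhe40, Bhlhe41 and Timeless did not. Bhlhe40 was lowest in those hearts, with 326%, 388%, 314% and 357% in satiated replicates 1 to 4. How many of all genes tested had such an order was not computed. With 4 hearts per group no correlation was computed.

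**Figure D3:**
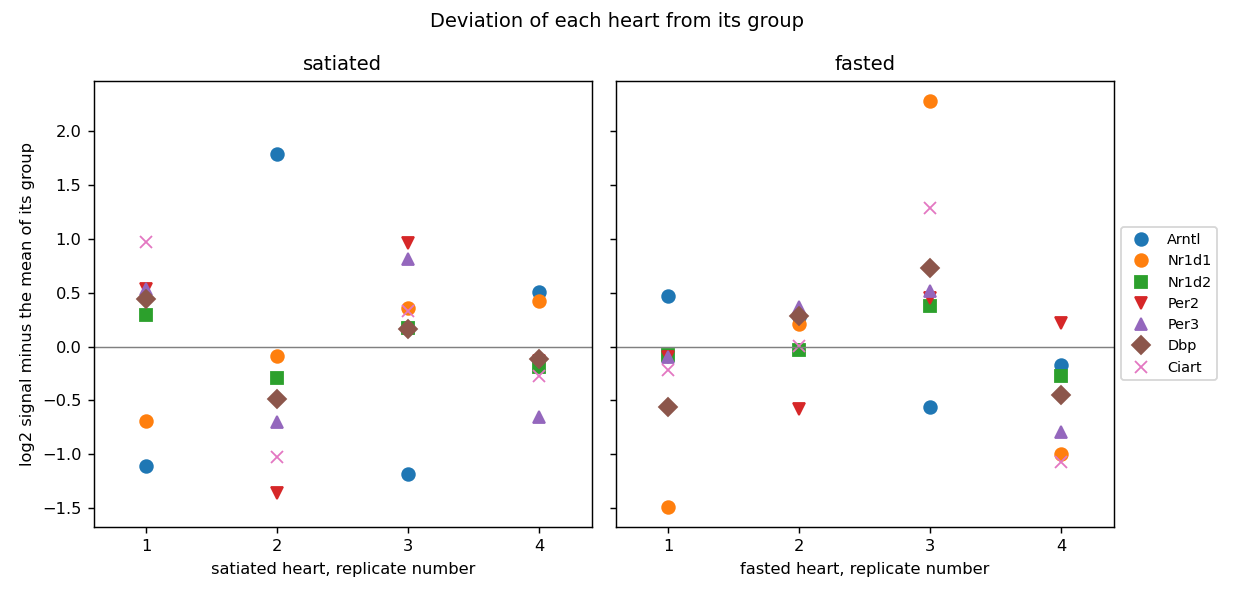
Log2 signal of each heart minus the mean of its group (vertical axis) for the brightest probes of 5 loop genes and the outputs Dbp and Ciart, by replicate number (horizontal axis) in the satiated (left) and fasted (right) group. Arntl lies opposite Per2, Per3, Nr1d2, Dbp and Ciart in all 4 satiated hearts and in fasted replicate 3, where Nr1d1 is highest. In satiated replicates 1 and 4 Nr1d1 lies on the same side as Arntl. Clock, Npas2, Per1, Cry1, Cry2 and the other accessory factors are not drawn, and Bhlhe40 among them was lowest in satiated replicates 1 and 3.

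Slide and fasting were not confounded, and the fasting effect of no loop gene depended on the slide by a test of that difference. In a fit with a term for slide, fasting and their interaction, 0 of the 10 genes had an adjusted or an unadjusted interaction p under 0.05 in limma, and 0 of all 20203 passed after adjustment, with 2.56% at an unadjusted p under 0.05. With 2 hearts per group and slide this test detects large differences at most. The levels on the slides differed by probe. Arntl was lower on slide 2 in both groups (-0.68 in the satiated and -0.74 in the fasted hearts, log2). The brightest Nr1d1 probe was higher there (0.78 and 1.28), but A_52_P130961 was lower (-1.13 and -0.82). Likewise the brighter Per2 probe was higher (0.82 and 0.67) and the other lower (-0.74 and -0.64), and the dimmer Cry2 probe was lower (-0.89 and -0.19) while the brighter was higher.

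Around the loop, 11 accessory and output factors were described, of which 9 were tested, and 2 rose, 3 fell and 4 did not pass. These counts, and those of the 3 lists that follow, stand against 9.82% higher and 10.3% lower over all tested. Rora, whose product activates Arntl through the ROR element, read 141%, 98.7%, 107% and 106% in the satiated hearts and 199%, 157%, 235% and 173% in the fasted hearts, which did not overlap, and rose by 0.75 ± 0.17 (adjusted p = 0.0189). Nfil3, which represses D-box genes, rose by 1.57 ± 0.40 (adjusted p = 0.0286), from 148% to 245% to a range of 221% to 818%.

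Dbp, the D-box activator named above, fell by 2.56 ± 0.32 (adjusted p = 0.00195), to 652%, 1174%, 1599% and 708% in the fasted hearts, all below every satiated heart. Timeless fell by 1.14 ± 0.18 (adjusted p = 0.00443); in mammals its product acts chiefly at replication forks. Bhlhe40, an E-box repressor also called Dec1, fell by 0.67 ± 0.14 (adjusted p = 0.0125). The D-box activators Tef and Hlf gave -0.0028 ± 0.26 and -0.61 ± 0.25, and Ciart, with the same order of hearts as Dbp in the satiated group, gave -0.86 ± 0.56, none past the test. The median of the 9 was -0.61, against -0.0042 over all tested. The count of 5 became 3 without satiated replicate 2, satiated replicate 4 or fasted replicate 1, and was 4 or 5 without any other heart.

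**Figure D4:**
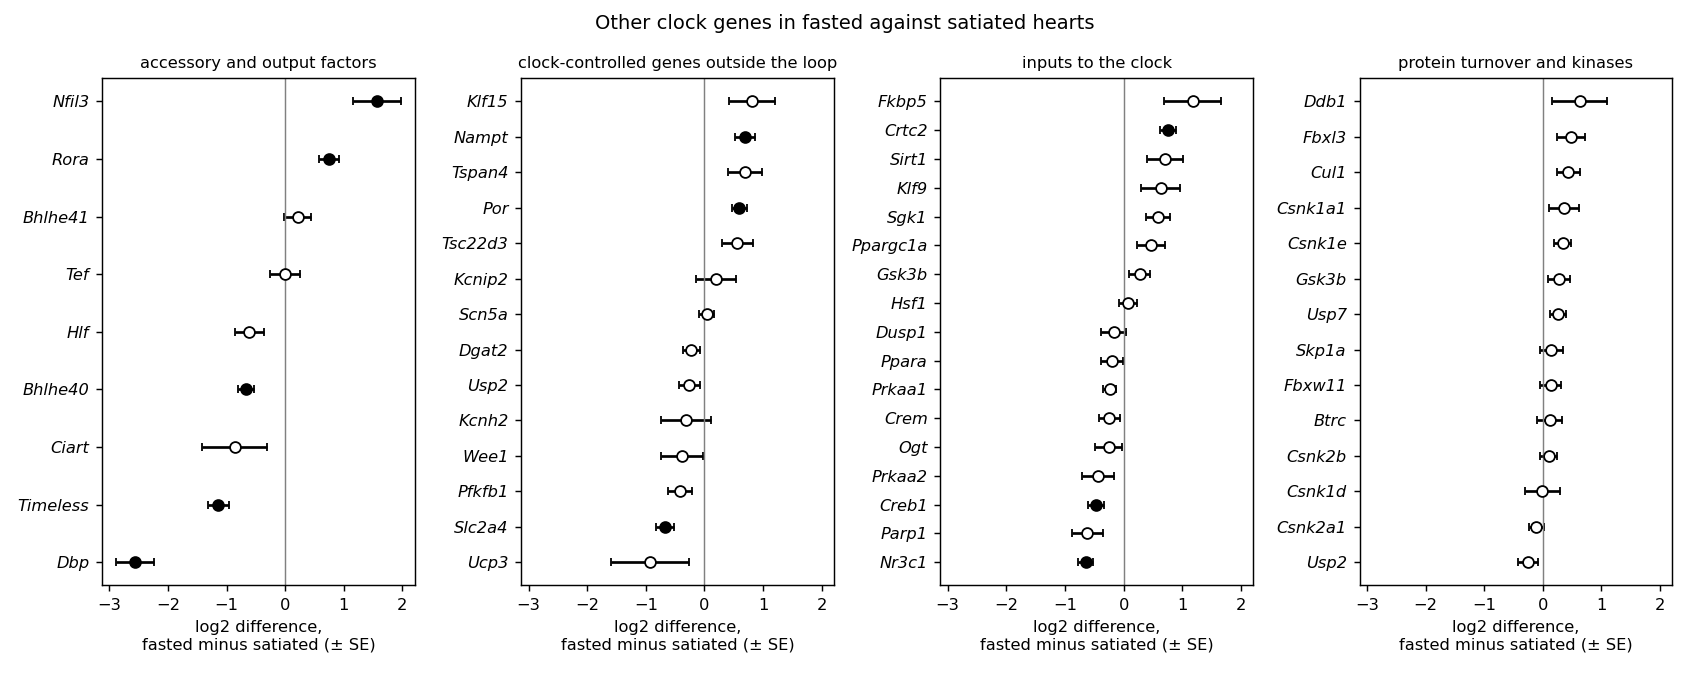
Log2 difference between fasted and satiated hearts (horizontal axis, ± SE, 4 hearts per group) for the tested genes of 4 clock-related lists; filled points passed at an adjusted p under 0.05. In the first panel Nfil3 and Rora lie to the right and Dbp, Timeless and Bhlhe40 to the left, while in the last panel none of the 14 points is filled.

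Kinases and ubiquitin ligase parts that set the life of PER and CRY proteins showed no call: 0 of 14 tested passed in limma, with 0 at an unadjusted p under 0.05 and a median of 0.20. The member with the smallest p was Cul1, a scaffold of SCF ligases (0.44 ± 0.19, adjusted p = 0.152). With slide as a term 4 of the 14 rose and 0 fell. In that fit 3461 of all 20203 tested rose and 3716 fell, 35.5% together.

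Of 14 listed clock-controlled genes outside the loop 2 rose, 1 fell and 11 did not pass, with a median of -0.09. Por, the electron donor of microsomal cytochromes P450, rose by 0.60 ± 0.13 (adjusted p = 0.0140) and Nampt, which makes NAD, by 0.69 ± 0.17 (adjusted p = 0.0268). Slc2a4, the insulin-responsive glucose transporter GLUT4, fell by 0.67 ± 0.15 (adjusted p = 0.0180). Without satiated replicate 2 the count was 1.

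Among 17 tested genes through which hormones and nutrients reach the clock, 1 rose, 2 fell and 14 did not pass, with a median of -0.17. Crtc2, a coactivator of CREB, rose by 0.75 ± 0.14 (adjusted p = 0.00748). Nr3c1, the glucocorticoid receptor, fell by 0.65 ± 0.13 (adjusted p = 0.0126) and Creb1 by 0.47 ± 0.14 (adjusted p = 0.0477). With slide as a term the count was 6, against the same 35.5%.

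In all 2 of the 10 loop genes were called and changed at least 2-fold, Arntl and Per3, against 7.38% of all tested. The named genes whose profiles over the 8 hearts, centred on their mean, lay nearest to that of Arntl among 13793 compared were Aqp5, Plekhs1 and Rasl11a, at root mean square differences of 0.67, 0.69 and 0.69 on the log2 scale. Nearest to Per3 were Glt28d2, Rprm and Kcnmb1, at 0.45, 0.45 and 0.48. None of the 6 is on a clock list used here, and with 8 hearts in 2 groups such nearness describes these arrays.

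The tissue label was checked against markers of the cell types a heart sample can hold. The marker counts below stand against 9.82% higher and 10.3% lower over all tested. All 6 cardiomyocyte markers were measured, with a summed signal of 166754% to 231385% in the satiated hearts and 147361% to 221103% in the fasted hearts, and 1 of the 6, Actc1, fell. Of the 5 fibroblast markers 1 rose and 3 fell, with sums of 19637% to 21744% and 21547% to 26879%. Dcn, the marker that rose, alone read 14098% to 15827% and 20123% to 26009%, so these sums mostly follow that gene. Macrophage markers gave 1 rise among 4, smooth muscle and pericyte markers 1 fall among 5, and none passed among 6 endothelial, 4 adipocyte, 4 mesothelial, 3 red blood cell or 4 fast skeletal muscle markers in limma, where single hearts stood apart as given above. The adipocyte sum ran from 2746% to 8608% in the satiated and from 2848% to 6326% in the fasted hearts. The part of cell composition in the differences of the loop genes was not tested.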

How the data were processed

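The authors deposited Agilent Feature Extraction tables of spot intensity, background-subtracted per array and not normalized between arrays, per the file headers, which give software versions 10.5.1.1 (slide 1) and 10.7.3.1 (slide 2); the submitters' processing notes name 9.1. A table of linear ratios deposited for the series, made by steps not given in the sources used here, was an alternative.

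From the processed intensities, log2 values minus each array's 75th percentile were taken. Control and outlier spots were left out and spots of a probe averaged. A probe was kept if well above background on 4 or more of 8 arrays, which left 26480 of 41174. Accessions were matched to RefSeq symbols (assembly GRCm38.p6, names only; the array's annotation is of mm9). A symbol was found for 26690 probes, and each gene was represented by its brightest kept probe. Groups were compared with limma 3.58.1 (lmFit, eBayes, two-sided, Benjamini-Hochberg adjustment over 20203 rows, threshold 0.05) in R 4.3.3, without a slide term. The code was tested on simulated data. Figures were drawn with matplotlib 3.10.9.

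The alternatives were normexp background correction (on the median signal, since the mean signal is not in the tables), other normalizations and probe filters, other rules for several probes, slide and replicate blocks, array weights and leaving out each heart. All 10 loop genes and 17 probes are described. Genes of the lists were named where called, up to 4 by smallest p, or the smallest p where none was. Nfil3, Bhlhe41, Ciart, Tef and Hlf and the markers were named after their values were seen. Leaving out hearts for the lists and the slide interaction were added after the data were seen. One listed gene is not reported here and was left out of its list's counts. The loop genes and lists were chosen with earlier results of these data known.

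Satiated and fasted hearts with the same number deviated from their group means together (r = 0.459, 0.499, 0.341 and 0.503 across probes for replicates 1 to 4), as did differently numbered hearts of the same slide (0.304 to 0.531). The values for same-numbered hearts lie within the range of the others, so pairs by number could not be told apart from the shared slide. The replicate number was also used as a block, though the labels state no pairing.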

Additional observations from a re-analysis of the deposited data

How the results depend on the processing

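Arntl was higher, and Per3 and Nr1d2 lower, under every alternative that tested them; the calls were less stable. The count of 3 loop genes became 0 in limma when dim probes were kept (2225 of 32701 called over all genes; 4 loop genes at an unadjusted p under 0.05) and on slide 1 alone (1883 called; 3 unadjusted) or slide 2 alone (1 called; 2 unadjusted), where fewer arrays were compared. It ranged from 0 to 3 when 1 heart was left out, while the count over all genes ranged from 2495 to 3690. With the slide as a fixed or random block, 7177 and 6638 genes were called and 4 loop genes. With the replicate block it was 6486 and 4 loop genes; apart from adding Npas2, that block changed no call in the loop. Per3 was not called with normexp or with probes well above background on all 8 arrays, where it was not tested.

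Of the lists, clock-controlled genes gave 0 with dim probes kept and 1 to 4 with 1 heart left out, and accessory factors 3, and 3 to 5. With the slide as a block protein turnover genes gave 4 and inputs 6. On slide 1 alone accessory factors gave 2, clock-controlled genes 1 and inputs 0, and on slide 2 alone these 3 lists gave 0. Dim probes, among them those of Npas2, Cry1 and Per3, are limited by signal over background, more so on slide 2.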

Other observations

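Of 6 genes on the lists that are known to be induced by glucocorticoids, 3 had the same lowest satiated and highest fasted heart as several loop genes. They were picked after their values were seen, and no test of the order was made. Of 20172 genes and probes compared, satiated replicate 2 was the lowest satiated heart for 4514. Fasted replicate 3 was the highest fasted heart for 6628, the most of any fasted heart. The share with both was not computed. Klf9, a Kruppel-like factor, read 572%, 307%, 623% and 603% in satiated replicates 1 to 4 and 584%, 660.5%, 1412% and 708% in fasted replicates 1 to 4. Klf15, a regulator of amino acid and lipid use in the heart, read 1666%, 736%, 1599% and 1115%, and then 1548%, 2084%, 4361% and 1499%. Tsc22d3, also called GILZ, read 1901%, 814%, 1743% and 1358%, and then 1822%, 2077%, 2413% and 1901%. In each of the 3, satiated replicate 2 was the lowest satiated heart and fasted replicate 3 the highest fasted heart. The same held for the brightest probes of Per1, Per2, Per3, Cry2 and Nr1d2, but not for the second Per2 probe. None of the 3 passed the comparison of the groups in limma (Klf9 0.64 ± 0.33, adjusted p = 0.220; Klf15 0.82 ± 0.39, adjusted p = 0.186; Tsc22d3 0.56 ± 0.26, adjusted p = 0.174). Fkbp5 ran differently: it was lowest in satiated replicate 2 (48.9%) but highest in satiated replicate 4 (249.6%), with 191% to 325% in the fasted hearts. Dusp1 ran the other way, with satiated replicate 2 the highest satiated heart (854%) and fasted replicate 3 the lowest fasted heart (502%). Sgk1 was lowest in satiated replicate 3 (1789.6%) and highest in fasted replicate 3 (4836%).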
